A study of Mus musculus with 24 samples.

Results

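Bipolar cells carry signals from the photoreceptors to the amacrine and ganglion cells of the retina. They fall into rod bipolar cells, ON cone bipolar cells and OFF cone bipolar cells, and transcription factors, mostly of the homeodomain and basic helix-loop-helix families, set and maintain these types. The genes described here are 8 such factors, Isl1, Bhlhe23, Prdm8, Vsx1, Lhx4, Bhlhe22, Irx5 and Irx6, taken by symbol from a table of 28802 genes. All 8 passed the filter on low values and are among the 16400 genes tested.

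The study measured retinal gene expression in inbred mouse strains to relate it to refractive eye development and contrast sensitivity. Whole retinae of wild type mice at postnatal day 28 were sequenced from total RNA depleted of ribosomal species. The 24 libraries came from 8 strains with 3 libraries each. The strains were 129S1/Svlmj, A/J, C57BL/6J, NOD/ShiLtJ and NZO/HlLtJ, which are classical laboratory strains, and CAST/EiJ, PWK/PhJ and WSB/EiJ, which were derived from wild mice. The labels do not say whether the libraries of a strain came from separate animals, and the study's methods count each as a biological replicate, so the p-values below measure the spread between these libraries.

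Values are cpm, reads scaled by the authors to the total of the library. The values of the table sum to between 332472 and 366570 cpm per library, so the total used for scaling holds reads that are not in the table. The smallest step between values in a library, taken as 1 read, gives a depth between 57.6 M and 78.1 M reads, with a median of 68.9 M. At that depth the member with the lowest level, Irx5, was counted from about 60.0 to 147 reads per library, where counting error alone is between 8.25% and 12.9%. Isl1, with the highest level, had between 1524 and 3035 reads, with a counting error of at most 2.56%. Differences were tested by limma on log2(cpm + 1), with Benjamini-Hochberg adjustment over all genes tested and, for pairs of strains, over all genes and all 28 pairs together. A difference was called at an adjusted p under 0.01. Folds are 2 to the power of the difference on the log2(cpm + 1) scale, which understates the change of genes at low levels.

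The libraries held the markers of retina. The bipolar genes Trpm1 and Grm6 averaged 189 and 24.6 cpm, and Rlbp1, a marker of Muller glia, averaged 82.7 cpm. Lens crystallins and other lens genes, as a list of 6 led by Cryaa, summed to 1042 cpm in NOD/ShiLtJ replicate 2, 913 cpm in 129S1/Svlmj replicate 2 and 125 cpm in C57BL/6J replicate 2. In the other 21 libraries this sum lay between 2.89 and 48.4 cpm. A list of 4 genes of the pigment epithelium, led by Rgr, summed to between 7.75 and 72.6 cpm per library, with a mean of 53.8 cpm in WSB/EiJ and 11.5 cpm in PWK/PhJ, while its member Best1 averaged 0.0396 cpm. The part of lens RNA in the levels of the 8 factors was not tested beyond leaving out these libraries in turn, with 28.1% of combinations of a factor and a pair of strains called without NOD/ShiLtJ replicate 2 (24.2% over all genes), 28.1% without 129S1/Svlmj replicate 2 (25% over all genes) and 30.4% without C57BL/6J replicate 2 (25.1% over all genes).

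A pair of libraries stood apart in the 8 factors themselves. WSB/EiJ replicate 2 was the lowest library of its strain for all 8, with a median deviation from the strain mean of -0.20 on the log2 scale. The same library deviated by -0.12 at the median of 8 bipolar reference genes and by -0.17 at the median of 7 rod genes, while the median of all genes tested deviated by -0.03. C57BL/6J replicate 1 was lowest of its strain for 6 of the 8 factors, with a median deviation of -0.20. Counts of called differences are given below with and without these libraries, as a choice made after seeing the data. The libraries were picked by their deviation in the 8 factors, so leaving them out narrows the spread of the factors in particular. A higher share of called factors without them can follow from that choice alone, and no conclusion is drawn from it.

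By the F-test over the 8 strains, 7 of the 8 factors were called, all except Irx5, beside 70.6% of all genes tested. Of the 224 combinations of a factor and a pair of strains, 64 were called, or 28.6%, beside 25.2% over all genes. With the further requirement of a 1.5-fold difference, 24 combinations were called, or 10.7%, beside 6.89% over all genes. With scaling by the bipolar reference genes 12 were called, or 5.36%, beside 10.6% over all genes. Without the fold requirement that scaling gave 33% beside 42%. The level used for it differed between strains, from 0.771 in a CAST/EiJ library to 1.22 in a NOD/ShiLtJ library. The share called rose with it from 25.2% to 42% over all genes, and from 28.6% to 33% for the 8 factors. A comparison with all genes under this scaling is therefore a description, and no conclusion is drawn from it. With the authors' scaling, the median log2 difference between the highest and the lowest strain was 0.82 for the 8 factors and 0.43 for all genes tested. These medians depend on the pseudocount of 1, which narrows differences at low levels. With a pseudocount of 0.1 the shares called with a 1.5-fold difference were 12.5% for the factors and 11.2% over all genes. Without WSB/EiJ replicate 2, 77 combinations were called, or 34.4% beside 25% over all genes, and 25 of them had the 1.5-fold difference, or 11.2% beside 6.92%. Without both libraries that stood apart 80 were called, or 35.7% beside 24.5% over all genes, and 26 had the 1.5-fold difference, or 11.6% beside 6.92%. The F-test called 7 factors in each of these fits, beside 93.5% of all genes with scaling by the bipolar reference genes. The share over all genes was 70.1% without WSB/EiJ replicate 2 and 70.2% without both libraries. The F-test call of Irx6 was near the limit, and that of Irx6 or Bhlhe22 was lost when certain single libraries were left out, as given with each gene.

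The calls were unevenly spread over the strains. CAST/EiJ took part in 30 of its 56 possible calls, or 53.6%, where 33.5% of the combinations with CAST/EiJ were called over all genes. For PWK/PhJ the count was 27 of 56, or 48.2%, beside 33.3% over all genes, and for C57BL/6J it was 7 of 56, or 12.5%, beside 21.4%. With the 1.5-fold difference CAST/EiJ had 13 calls, or 23.2% beside 9.95% over all genes, and PWK/PhJ 12, or 21.4% beside 9.91%. C57BL/6J then had 4 calls, or 7.14%, which was above the 5.81% over all genes. CAST/EiJ had the lowest mean of 5 factors, Isl1, Bhlhe23, Lhx4, Bhlhe22 and Irx6, but of only Bhlhe23 and Lhx4 when each library was scaled by the bipolar reference genes. PWK/PhJ had the lowest mean of Vsx1 and Prdm8, and under that scaling also of Isl1, and the highest mean of Lhx4 and Irx6. Over all genes tested, CAST/EiJ was the lowest strain for 22.6% and PWK/PhJ for 15.8%, and PWK/PhJ was the highest for 22.1%.

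**Figure D1:**
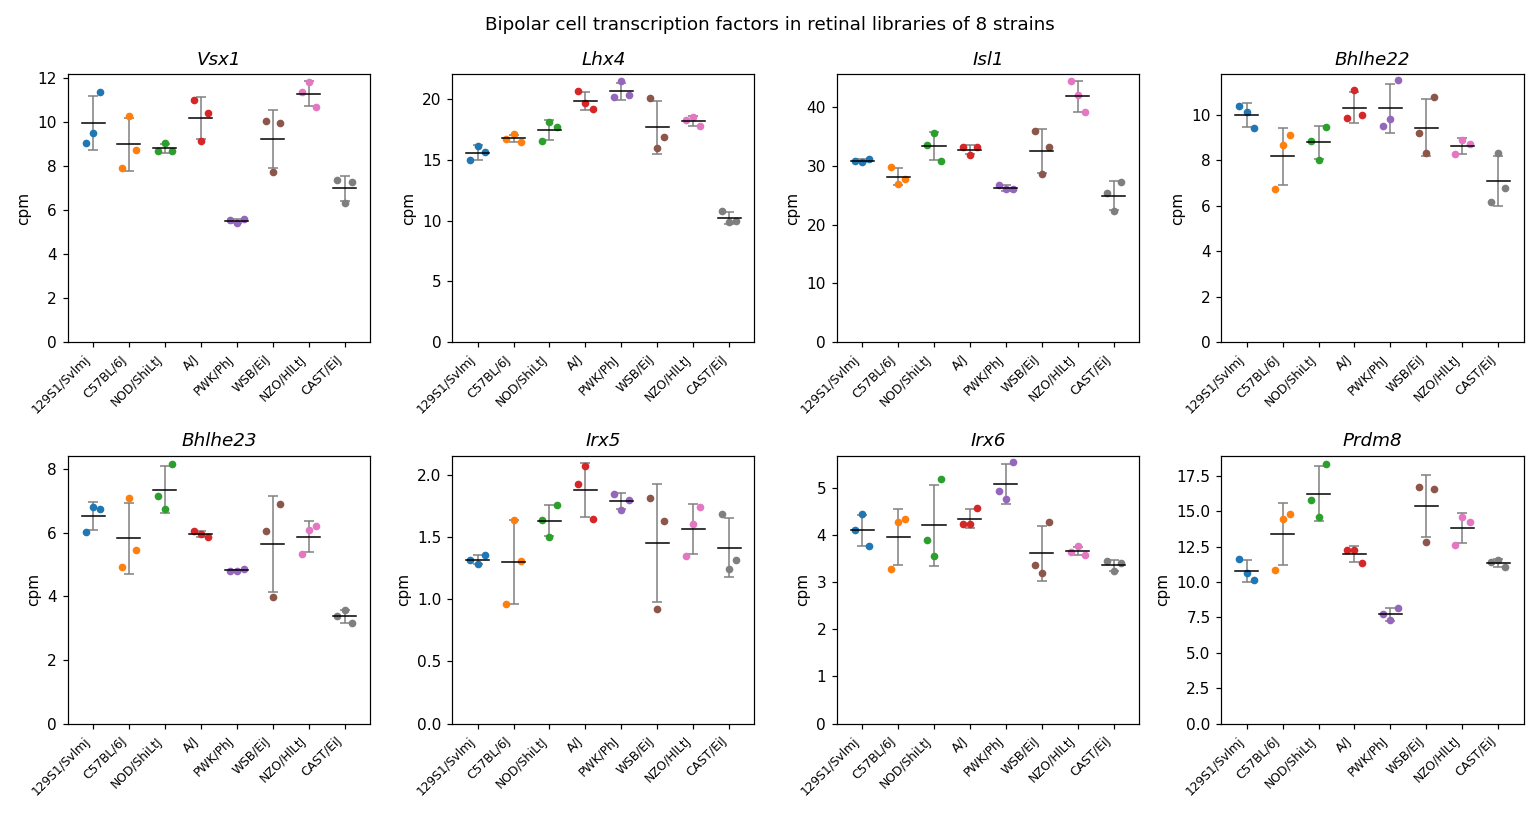
Each panel shows the cpm of 1 factor on the vertical axis for the 8 strains on the horizontal axis; points are the 3 libraries of a strain, black lines the mean and grey bars the SD. All 3 CAST/EiJ libraries lie lowest for Lhx4 and Bhlhe23, all 3 PWK/PhJ libraries lie lowest for Vsx1 and Prdm8, and all 3 NZO/HlLtJ libraries lie highest for Isl1, also with scaling by the bipolar reference genes for the strain means. The share of all genes with such separated libraries was not counted. By strain means, CAST/EiJ was lowest for 22.6% of all genes tested, PWK/PhJ lowest for 15.8% and NZO/HlLtJ highest for 9.82%.

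Levels of different genes were compared per length of their merged exons. Isl1 had the highest mean level over the 24 libraries, 7.92 cpm per kb, followed by Lhx4 at 2.97, Bhlhe22 at 2.72, Prdm8 at 2.59, Vsx1 at 2.34 and Bhlhe23 at 2.25 cpm per kb. The Iroquois factors were lower, with Irx6 at 1.20 and Irx5 at 0.494 cpm per kb. Isl1 is also made outside bipolar cells, in starburst amacrine and ganglion cells, so its level in whole retina is a sum over these cells. For all 8 genes, fewer cells of a type and less RNA per cell cannot be told apart in whole tissue.

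Isl1 is a LIM homeodomain factor of rod bipolar and ON cone bipolar cells. Its levels in NZO/HlLtJ were 44.4, 42.1 and 39.1 cpm, in NOD/ShiLtJ 33.6, 35.7 and 30.9 cpm, in A/J 33.2, 31.9 and 33.2 cpm, and in WSB/EiJ 36.1, 28.6 and 33.2 cpm. They were 30.9, 30.6 and 31.2 cpm in 129S1/Svlmj, 29.8, 27.0 and 27.8 cpm in C57BL/6J, 26.8, 26.0 and 26.0 cpm in PWK/PhJ, and 25.3, 22.3 and 27.2 cpm in CAST/EiJ. Every NZO/HlLtJ library lay above every library of the other strains, and CAST/EiJ overlapped PWK/PhJ and C57BL/6J. NZO/HlLtJ averaged 41.9 cpm ± 2.65 (SD, n = 3) and CAST/EiJ 24.9 cpm ± 2.51 (SD, n = 3), a log2 difference of 0.73 with an adjusted p of 3.2e-08 in limma with Benjamini-Hochberg adjustment. NZO/HlLtJ differed from each of the 7 other strains, by a log2 difference of 0.32 from the next, NOD/ShiLtJ, with a limma adjusted p of 0.00138. Further down the order no strain differed from the next. With scaling by the bipolar reference genes NZO/HlLtJ was again highest, the lowest strain was PWK/PhJ, and the log2 difference between NZO/HlLtJ and CAST/EiJ was 0.40.

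Starburst amacrine genes, a further source of Isl1, had another order of strains. Their list of 5, led by Megf10, summed to 35.1, 38.0 and 40.2 cpm in PWK/PhJ, above every other library, and to 23.0, 23.4 and 25.4 cpm in NZO/HlLtJ. Of these 5 genes, 4 were called by the F-test, which called 70.6% of all genes tested. Chat, the acetylcholine synthesizing enzyme, averaged 4.74 cpm ± 0.427 (SD, n = 3) in PWK/PhJ and 2.14 cpm ± 0.0562 (SD, n = 3) in NZO/HlLtJ. Among 8 ganglion cell genes, 7 were called by the F-test, with 25.4% of pairs called beside 25.2% over all genes. With a 1.5-fold difference 6.25% of their pairs were called, beside 6.89%. Of the 8 genes, 6 had their lowest mean in CAST/EiJ, which was lowest for 22.6% of all genes. Thy1 was at 16.8 cpm ± 1.37 (SD, n = 3) in CAST/EiJ and at 33.5 cpm ± 2.33 (SD, n = 3) in C57BL/6J. The share of these cells in the Isl1 level was not tested.

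Bhlhe23 is a basic helix-loop-helix factor needed for the maturation and survival of rod bipolar cells. It was at 7.15, 6.75 and 8.18 cpm in NOD/ShiLtJ, 6.02, 6.83 and 6.76 cpm in 129S1/Svlmj, 6.05, 5.95 and 5.87 cpm in A/J, and 5.33, 6.11 and 6.21 cpm in NZO/HlLtJ. C57BL/6J libraries held 4.93, 7.09 and 5.46 cpm, WSB/EiJ libraries 6.08, 3.99 and 6.92 cpm, PWK/PhJ libraries 4.80, 4.81 and 4.85 cpm, and CAST/EiJ libraries 3.38, 3.58 and 3.17 cpm. All CAST/EiJ libraries were below all others, the nearest being WSB/EiJ replicate 2. The means of NOD/ShiLtJ, 7.36 cpm ± 0.740 (SD, n = 3), and CAST/EiJ, 3.38 cpm ± 0.205 (SD, n = 3), differed by 0.93 on the log2 scale, with a limma Benjamini-Hochberg adjusted p of 1.84e-06. CAST/EiJ differed from 6 of the 7 other strains and not from PWK/PhJ, the next in order, and 1 further pair was called, NOD/ShiLtJ above PWK/PhJ. No neighbours in the order were separated. With scaling by the bipolar reference genes CAST/EiJ was again lowest and 129S1/Svlmj, in place of NOD/ShiLtJ, highest, and the log2 difference between NOD/ShiLtJ and CAST/EiJ was 0.45. The number of called pairs rose from 7 to 10 without WSB/EiJ replicate 2.

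Prdm8 is a zinc finger factor of the PRDM family that is needed for rod bipolar cells and for a subset of OFF cone bipolar cells. Its values were 15.8, 14.6 and 18.4 cpm in NOD/ShiLtJ, 16.7, 12.8 and 16.5 cpm in WSB/EiJ, 12.6, 14.6 and 14.2 cpm in NZO/HlLtJ, and 10.8, 14.4 and 14.8 cpm in C57BL/6J. A/J gave 12.3, 12.3 and 11.3 cpm, CAST/EiJ 11.4, 11.5 and 11.0 cpm, 129S1/Svlmj 11.6, 10.6 and 10.1 cpm, and PWK/PhJ 7.72, 7.28 and 8.19 cpm. The PWK/PhJ libraries were the lowest and did not overlap any other strain, while the libraries of the other strains formed an overlapping series. PWK/PhJ averaged 7.73 cpm ± 0.453 (SD, n = 3) against 16.3 cpm ± 1.93 (SD, n = 3) in NOD/ShiLtJ, a log2 difference of 0.98 with an adjusted p of 6.01e-08 in limma with Benjamini-Hochberg adjustment. PWK/PhJ differed from all 7 other strains, by a log2 difference of 0.43 from 129S1/Svlmj, the next above it, with a limma adjusted p of 0.00176. The other neighbours were not separated. WSB/EiJ had the highest mean without WSB/EiJ replicate 2 or without NOD/ShiLtJ replicate 3, and C57BL/6J with scaling by the bipolar reference genes. The called pairs of Prdm8 numbered 12 with all libraries and 17 without WSB/EiJ replicate 2 and C57BL/6J replicate 1.

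Vsx1 is a paired-like homeodomain factor required for the late differentiation of OFF cone bipolar cells. The highest strain was NZO/HlLtJ with 11.3, 11.8 and 10.7 cpm, followed by A/J with 11.0, 9.11 and 10.4 cpm, 129S1/Svlmj with 9.02, 9.50 and 11.3 cpm, and WSB/EiJ with 10.0, 7.71 and 9.93 cpm. C57BL/6J had 7.92, 10.3 and 8.72 cpm, NOD/ShiLtJ 8.68, 9.04 and 8.69 cpm, CAST/EiJ 7.36, 6.33 and 7.27 cpm, and PWK/PhJ 5.55, 5.41 and 5.58 cpm. PWK/PhJ lay below every other library, CAST/EiJ came next and also lay below the remaining strains, and among the other 6 strains each overlapped the next in the order. Between NZO/HlLtJ at 11.3 cpm ± 0.571 (SD, n = 3) and PWK/PhJ at 5.51 cpm ± 0.0914 (SD, n = 3) the log2 difference was 0.91, with a limma Benjamini-Hochberg adjusted p of 6.1e-08. PWK/PhJ differed from 6 strains and CAST/EiJ from 4, but they were not separated from each other, and neither was any other pair of neighbours. The 10 called pairs became 15 without WSB/EiJ replicate 2.

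Lhx4 is a LIM homeodomain factor of several cone bipolar types and of developing cones. PWK/PhJ libraries were at 20.2, 21.5 and 20.3 cpm, A/J libraries at 20.7, 19.7 and 19.2 cpm, NZO/HlLtJ libraries at 18.3, 18.5 and 17.8 cpm, and WSB/EiJ libraries at 20.1, 16.0 and 16.9 cpm. NOD/ShiLtJ was at 16.6, 18.1 and 17.7 cpm, C57BL/6J at 16.7, 17.1 and 16.5 cpm, 129S1/Svlmj at 15.0, 16.2 and 15.6 cpm, and CAST/EiJ at 10.8, 9.87 and 9.96 cpm. A gap separated all CAST/EiJ libraries from all others. CAST/EiJ averaged 10.2 cpm ± 0.527 (SD, n = 3) and PWK/PhJ 20.7 cpm ± 0.702 (SD, n = 3), and their log2 difference of 0.95 had an adjusted p of 1.94e-11 in limma with Benjamini-Hochberg adjustment. CAST/EiJ differed from each of the 7 other strains, and its distance to 129S1/Svlmj, the nearest, was 0.57 on the log2 scale with a limma adjusted p of 1.28e-07. Strains above 129S1/Svlmj were not separated from their neighbours, although A/J and PWK/PhJ were both called above C57BL/6J and 129S1/Svlmj. Scaling by the bipolar reference genes left CAST/EiJ lowest and PWK/PhJ highest, with a log2 difference of 0.61. Lhx4 had the smallest F-test adjusted p of the 8 factors, 1.4e-10 in limma with Benjamini-Hochberg adjustment.

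Opposite positions of PWK/PhJ were thus measured for Vsx1 and Lhx4, both factors of cone bipolar cells. PWK/PhJ was the lowest strain for Vsx1 and the highest for Lhx4, under all scalings tried, while CAST/EiJ was among the 2 lowest strains for both with the authors' scaling. Of 11 OFF cone bipolar markers tested, 9 were called by the F-test, beside 70.6% of all genes tested. In PWK/PhJ 2 of the 11 had their lowest mean and 1 its highest, and in CAST/EiJ 3 were lowest, such as Tacr3 at 5.12 cpm ± 0.310 (SD, n = 3), and 1 was highest, Col11a1 at 13.0 cpm ± 1.21 (SD, n = 3).

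Bhlhe22 is a basic helix-loop-helix repressor of a subset of OFF cone bipolar cells and of GABAergic amacrine cells, and acts with Prdm8 in other neurons. A/J had 9.87, 11.1 and 9.98 cpm, PWK/PhJ 9.51, 9.82 and 11.5 cpm, 129S1/Svlmj 10.4, 10.1 and 9.40 cpm, and WSB/EiJ 9.20, 8.31 and 10.8 cpm. The values of NOD/ShiLtJ were 8.86, 8.03 and 9.46 cpm, of NZO/HlLtJ 8.26, 8.91 and 8.74 cpm, of C57BL/6J 6.73, 8.68 and 9.10 cpm, and of CAST/EiJ 6.18, 8.32 and 6.76 cpm. CAST/EiJ was lowest on average, but its libraries overlapped those of C57BL/6J, NZO/HlLtJ, NOD/ShiLtJ and WSB/EiJ. A/J at 10.3 cpm ± 0.684 (SD, n = 3) and CAST/EiJ at 7.09 cpm ± 1.11 (SD, n = 3) differed by 0.49 on the log2 scale, with a limma Benjamini-Hochberg adjusted p of 0.000648. That call ended with scaling by the bipolar reference genes, where the log2 difference was 0.02 and the limma adjusted p 0.867. There 129S1/Svlmj was highest and NOD/ShiLtJ lowest, and 2 pairs of Bhlhe22 were called, where 42% of pairs were called over all genes. PWK/PhJ was highest without A/J replicate 2 or without PWK/PhJ replicate 1 or 2. With the authors' scaling and all libraries, the 4 called pairs were all with CAST/EiJ, and no neighbours in the order were separated. The F-test adjusted p of 0.00184 in limma became 0.0111 without CAST/EiJ replicate 1, and the called pairs fell from 4 to 2.

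Irx5 and Irx6 are Iroquois homeodomain factors of subsets of cone bipolar cells, and their genes lie in the same cluster on chromosome 8. Irx6 was at 4.92, 4.76 and 5.55 cpm in PWK/PhJ, 4.22, 4.23 and 4.57 cpm in A/J, 3.89, 3.55 and 5.18 cpm in NOD/ShiLtJ, and 4.10, 4.43 and 3.77 cpm in 129S1/Svlmj. Lower Irx6 means were those of C57BL/6J with 3.28, 4.26 and 4.34 cpm, NZO/HlLtJ with 3.65, 3.75 and 3.58 cpm, WSB/EiJ with 3.36, 3.19 and 4.27 cpm, and CAST/EiJ with 3.44, 3.22 and 3.41 cpm. PWK/PhJ was above all other libraries except NOD/ShiLtJ replicate 3. For Irx6, PWK/PhJ at 5.08 cpm ± 0.418 (SD, n = 3) and CAST/EiJ at 3.36 cpm ± 0.117 (SD, n = 3) differed by 0.48 on the log2 scale, with an adjusted p of 0.000734 in limma with Benjamini-Hochberg adjustment. PWK/PhJ was also called above WSB/EiJ and NZO/HlLtJ, which gave 3 called pairs, and no neighbours were separated. Scaling by the bipolar reference genes took the difference between PWK/PhJ and CAST/EiJ to 0.19, with a limma adjusted p of 0.0972, and made WSB/EiJ the lowest strain. The same scaling raised the called pairs of Irx6 from 3 to 7 of 28, where the share over all genes rose from 25.2% to 42%, with a limma F-test adjusted p of 0.000281 after Benjamini-Hochberg adjustment.

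The F-test adjusted p of Irx6 in limma with Benjamini-Hochberg adjustment was 0.0062, and leaving out single libraries took it past the limit in 8 of 24 fits. It was 0.0162, 0.0116 and 0.0317 without PWK/PhJ replicates 1, 2 and 3, and 0.0121, 0.0154 and 0.0124 without CAST/EiJ replicates 1, 2 and 3, from limma with Benjamini-Hochberg adjustment. Without WSB/EiJ replicate 1 it was 0.0105 and without NZO/HlLtJ replicate 3 it was 0.0102, by limma with the same adjustment. Irx6 became lowest in WSB/EiJ without WSB/EiJ replicate 3. Its 3 called pairs fell to 1 without PWK/PhJ replicate 3, and to 2 without PWK/PhJ replicate 1, WSB/EiJ replicate 1 or 2, or any of the NZO/HlLtJ replicates 1, 2 and 3.

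Irx5 gave 1.93, 2.07 and 1.65 cpm in A/J, 1.85, 1.72 and 1.80 cpm in PWK/PhJ, 1.64, 1.504 and 1.76 cpm in NOD/ShiLtJ, and 1.35, 1.61 and 1.74 cpm in NZO/HlLtJ. In WSB/EiJ it was at 1.82, 0.919 and 1.63 cpm, in CAST/EiJ at 1.69, 1.25 and 1.32 cpm, in 129S1/Svlmj at 1.32, 1.28 and 1.36 cpm, and in C57BL/6J at 0.959, 1.64 and 1.31 cpm. All A/J libraries lay above those of C57BL/6J and 129S1/Svlmj, and all PWK/PhJ libraries above those of C57BL/6J, 129S1/Svlmj and CAST/EiJ, while most other pairs of strains overlapped. The F-test adjusted p was 0.0805 in limma with Benjamini-Hochberg adjustment. A/J at 1.88 cpm ± 0.217 (SD, n = 3) and C57BL/6J at 1.30 cpm ± 0.340 (SD, n = 3) differed by 0.33 on the log2 scale, with a limma Benjamini-Hochberg adjusted p of 0.0276. This pair was called without WSB/EiJ replicate 2, with a limma adjusted p of 0.00675, and without C57BL/6J replicate 2, with 0.00717. Without C57BL/6J replicate 1 the log2 difference fell to 0.22, with a limma adjusted p of 0.166, and 129S1/Svlmj became lowest. Scaling by the bipolar reference genes took it to 0.099, with a limma adjusted p of 0.399. Under that scaling CAST/EiJ was highest and WSB/EiJ lowest. The pair of A/J and C57BL/6J was not called without both libraries that stood apart, where the limma adjusted p was 0.0592. In that fit 1 other pair was called for Irx5, and its extremes were A/J and 129S1/Svlmj. The median library held 107 reads of Irx5.

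**Figure D2:**
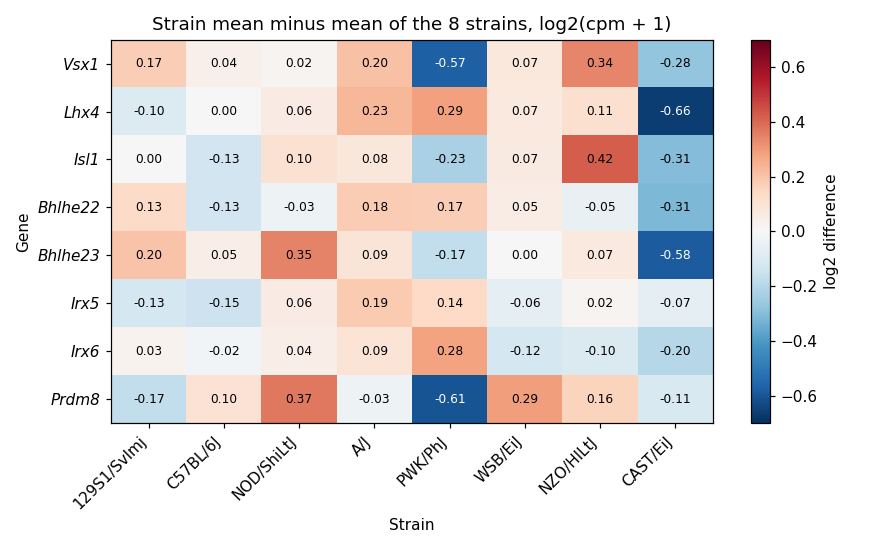
The heat map gives, for each factor in rows and each strain in columns, the strain mean of log2(cpm + 1) minus the mean of the 8 strains, with n = 3 libraries per strain and red for higher values. The lowest cells are Lhx4 and Bhlhe23 in CAST/EiJ at -0.66 and -0.58 and Prdm8 and Vsx1 in PWK/PhJ at -0.61 and -0.57, strains that are also lowest for these genes when libraries are scaled by the bipolar reference genes.

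Other transcription factors of bipolar cells were counted as a list of 18. Of these, 15 passed the filter and 11 were called by the F-test, beside 70.6% of all genes. Of their pairs 24.8% were called, beside 25.2% over all genes, and 1.67% with a 1.5-fold difference, beside 6.89%. The median log2 difference of these factors between highest and lowest strain was 0.44, close to the 0.43 of all genes. Lhx3, a LIM homeodomain factor, averaged 3.67 cpm ± 0.250 (SD, n = 3) in NZO/HlLtJ and 1.83 cpm ± 0.0597 (SD, n = 3) in CAST/EiJ. Neurod4, a proneural factor, averaged 82.5 cpm ± 4.80 (SD, n = 3) in WSB/EiJ and 52.5 cpm ± 1.89 (SD, n = 3) in CAST/EiJ. Sebox averaged 18.9 cpm ± 0.196 (SD, n = 3) in NOD/ShiLtJ and 12.2 cpm ± 0.523 (SD, n = 3) in C57BL/6J. Otx2 and Crx, which act in photoreceptors and bipolar cells, spanned 53.0 to 72.9 cpm and 361 to 425 cpm over the strain means. In CAST/EiJ 5 of the 15 had their lowest mean.

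Genes of the bipolar cell signalling machinery moved with the strains as well. All 8 bipolar reference genes, led by Trpm1, the channel of ON bipolar cells, were called by the F-test, beside 70.6% of all genes. Of their pairs 42% were called, beside 25.2% over all genes, and 18.3% with a 1.5-fold difference, beside 6.89%. The summed level of the list was 544, 469 and 534 cpm in WSB/EiJ, 503, 480.4 and 525 cpm in NOD/ShiLtJ, 509.5, 485 and 472 cpm in A/J, and 439.8, 447 and 454 cpm in NZO/HlLtJ. It was 370.1, 424 and 416 cpm in 129S1/Svlmj, 401, 394 and 396 cpm in PWK/PhJ, 363, 393 and 372 cpm in C57BL/6J, and 369, 351 and 346 cpm in CAST/EiJ. CAST/EiJ thus had the lowest sums of this list on average, and 5 of the 8 genes had their lowest mean there, among them Nyx at 4.02 cpm ± 0.454 (SD, n = 3) against 11.3 cpm ± 0.294 (SD, n = 3) in NOD/ShiLtJ. Cabp5, a calcium-binding protein, went from 68.2 cpm ± 5.03 (SD, n = 3) in PWK/PhJ to 24.5 cpm ± 1.54 (SD, n = 3) in C57BL/6J. The geometric mean of the list, as a factor per library, ran from 0.771 in a CAST/EiJ library to 1.22 in a NOD/ShiLtJ library. The part of this difference in the lower CAST/EiJ levels of the 8 factors was tested only as the scaling given with each gene. With it the combinations called with a 1.5-fold difference went from 24 to 12, as given above with the shares over all genes.

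Markers of rod bipolar cells had the largest median log2 difference between highest and lowest strain among the bipolar lists, 1.12. All 5 were called by the F-test, with 57.1% of pairs called. Over all genes tested these shares were 70.6% and 25.2%. Prkca, the protein kinase C used to stain rod bipolar cells, averaged 189 cpm ± 6.46 (SD, n = 3) in WSB/EiJ and 57.3 cpm ± 2.08 (SD, n = 3) in A/J. Car8 averaged 36.5 cpm ± 0.854 (SD, n = 3) in WSB/EiJ and 14.5 cpm ± 0.752 (SD, n = 3) in PWK/PhJ, and Pcp2 averaged 36.3 cpm ± 0.586 (SD, n = 3) in NOD/ShiLtJ and 16.2 cpm ± 1.12 (SD, n = 3) in NZO/HlLtJ. WSB/EiJ was highest for 4 of the 5. Of 11 ON cone bipolar genes 10 were called, with Igfn1 at 30.1 cpm ± 4.94 (SD, n = 3) in NOD/ShiLtJ and 1.05 cpm ± 0.124 (SD, n = 3) in PWK/PhJ, and Cck at 2.37 cpm ± 0.364 (SD, n = 3) in 129S1/Svlmj and 0.122 cpm ± 0.0467 (SD, n = 3) in CAST/EiJ. Of the 7 rod genes, 6 were called by the F-test and none was lowest in CAST/EiJ, while 1 of 6 cone genes was, Opn1sw. The summed level of the cone list, led by Opn1sw, was nevertheless lowest in CAST/EiJ, at 183 cpm ± 5.96 (SD, n = 3), with the next strain, NOD/ShiLtJ, at 206 cpm ± 4.25 (SD, n = 3) and no overlap of their libraries. The sums of the lists of bipolar types were lowest in other strains. Rod bipolar genes summed to 195 cpm ± 3.27 (SD, n = 3) in CAST/EiJ and 134 cpm ± 1.94 in A/J, the lowest. OFF cone bipolar genes summed to 163 cpm ± 4.63 in CAST/EiJ and 156 cpm ± 6.31 in C57BL/6J, the lowest. For ON cone bipolar genes PWK/PhJ was lowest at 71.1 cpm ± 2.84, and CAST/EiJ came next at 77.9 cpm ± 1.71.

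Lists for the other cells of the retina were counted in the same way. Over all genes tested, the F-test called 70.6%, and 25.2% of pairs were called, 6.89% with a 1.5-fold difference. Of 7 amacrine genes 3 were called by the F-test, with 18.4% of pairs called and none at 1.5-fold. The F-test called 2 of 3 horizontal cell genes, all 6 of Muller glia, all 4 of microglia, all 3 of endothelium, all 3 tested of the pigment epithelium and 2 of 3 tested of blood. The pairs called in these lists ranged from 26.2% for horizontal cells to 39.3% for endothelium. None of the 6 lens genes was called. The part of these cells in the levels of the 8 factors was not tested.

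Relations between the factors were computed over the 8 strain means for all 28 pairs of factors. Pearson's r was positive for 21 pairs, with a median of 0.452, but for 18 pairs with a median of 0.0680 after scaling by the bipolar reference genes. No pair had an adjusted p under 0.05 by the exact permutation test with Benjamini-Hochberg adjustment, the smallest being 0.284, and 3 had an unadjusted p under 0.05. The highest r, 0.810, was that of Vsx1 and Isl1, with an exact permutation p of 0.0163, adjusted 0.284, and a Spearman rank correlation of 0.714 with an exact permutation p of 0.0576, adjusted 0.358. Without PWK/PhJ and CAST/EiJ, the strains farthest from the median of Vsx1, r was 0.760. After scaling by the bipolar reference genes r was 0.842, with an adjusted exact permutation p of 0.342, and the rank correlation 0.976, with an adjusted exact permutation p of 0.0111. Adjustment was over the 28 pairs of 1 statistic and 1 scaling, and not over the scalings together. Both genes were divided by the same reference level in each library, and its part in this value was not tested.

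The other pairs with an unadjusted p under 0.05 for Pearson's r were Lhx4 with Bhlhe22 and Bhlhe22 with Irx6. For Lhx4 and Bhlhe22 r was 0.802, with an exact permutation p of 0.0203, adjusted 0.284, and the rank correlation was 0.667, with an exact permutation p of 0.0831, adjusted 0.358. Without CAST/EiJ and PWK/PhJ, r was 0.222, and after scaling by the bipolar reference genes r was 0.472 over 8 strains and 0.519 without the same strains. For Bhlhe22 and Irx6 r was 0.732, with an exact permutation p of 0.0370, adjusted 0.338, the rank correlation was 0.762, with an exact permutation p of 0.0368, adjusted 0.358, and r without CAST/EiJ and A/J was 0.567. Scaling by the bipolar reference genes gave Bhlhe22 and Irx6 an r of 0.771, with an adjusted exact permutation p of 0.342. Their rank correlation was then 0.881, with an adjusted exact permutation p of 0.101. Lhx4 and Irx5 had the smallest unadjusted p of the rank correlations, which was 0.810 with an exact permutation p of 0.0218, adjusted 0.358, while r was 0.572, with an exact permutation p of 0.123, adjusted 0.338, and 0.881 without CAST/EiJ and PWK/PhJ. After scaling by the bipolar reference genes this pair had an r of 0.122 and a rank correlation of 0.214. Irx5 and Irx6, neighbours on the chromosome, had an r of 0.622, with an exact permutation p of 0.0965, adjusted 0.338, the rank correlation was 0.619 with an exact permutation p of 0.115, adjusted 0.358, and r was 0.0398 without A/J and PWK/PhJ. Within strains, the deviations of the 24 libraries from their strain means gave a positive r for 23 of the 28 pairs, with a median of 0.457, and for 20 pairs with a median of 0.230 when the WSB/EiJ libraries were left out. After scaling by the bipolar reference genes 17 pairs of these deviations were positive, with a median of 0.128.

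The genes whose levels followed each factor most closely over the 24 libraries were described by Pearson's r of log2(cpm + 1). For Isl1 they were Cdk19 with an r of 0.908 and Tsr2 with 0.888, and for Bhlhe23 Nol3 with 0.914 and Rangap1 with 0.906. Prdm8 was followed by 2410131K14Rik with an r of 0.868 and Gm10097 with 0.855. For Vsx1 the values were 0.916 for Tomm20 and 0.916 for BC055402, and for Lhx4 they were 0.929 for Gm47543 and 0.925 for B4galt1. Bhlhe22 was nearest to Gpr153 with an r of 0.875 and Ppp2r2c with 0.846. Irx6 was nearest to Rd3 with an r of 0.860 and Shc2 with 0.851, and Irx5 to Atg2a with 0.820 and Tars2 with 0.810. The libraries of a strain share these values, so they are a description over 8 strains and not 24 independent points.

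By GENCODE on build GRCm38, the 8 genes lie on 6 chromosomes: Lhx4 at chr1:155698031-155751684, Vsx1 at chr2:150680702-150689360, Bhlhe23 at chr2:180774381-180776900, Bhlhe22 at chr3:18054174-18057517, Prdm8 at chr5:98167198-98188991, Irx5 at chr8:92357625-92376286, Irx6 at chr8:92674288-92680956 and Isl1 at chr13:116298281-116309689. Bhlhe22 and Bhlhe23 each have 1 merged exon. Antisense transcripts overlap a pair of them. A730035I17Rik shares 1411 bases, or 29.1%, of the merged exons of Prdm8, and Gm45505 shares 152 bases, or 4.51%, of those of Irx6. Whether the authors' counting used strand is not given in the sources used here, so reads of these exons cannot be assigned to either gene, although A730035I17Rik averaged only 0.0981 cpm. Gm14343, on the same strand as Bhlhe23, shares 144 bases, or 5.71%, of its exon and averaged 0.117 cpm. Of the sequence words of 31 bases in the transcripts, none of Bhlhe22 and 4.58% of those of Bhlhe23 occur in transcripts of another gene, for Bhlhe23 those of Gm14343. The share was 28.3% for Prdm8, mostly with A730035I17Rik, and 5.49% for Irx6. For Irx5 the share was 1.65%, in the related genes Irx1, Irx2 and Irx3.

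Of 52 genes of the table within 200 kb of a factor, 24 were tested and 18 of these were called by the F-test, beside 70.6% of all genes tested. The lowest strain of the neighbour was that of the factor for 6 of the 24. Over all genes tested, CAST/EiJ was lowest for 22.6% and PWK/PhJ for 15.8%, and whether 6 exceeds these shares was not tested. Both tested neighbours of Prdm8 were lowest in PWK/PhJ, as Prdm8 was, but they are not separate, since C430019N01Rik lies inside Antxr2 on the same strand. Antxr2, an anthrax toxin receptor, averaged 6.35 cpm ± 0.327 (SD, n = 3) in PWK/PhJ and 15.4 cpm ± 2.38 (SD, n = 3) in 129S1/Svlmj, and C430019N01Rik averaged 0.903 cpm ± 0.0813 (SD, n = 3) in PWK/PhJ and 2.10 cpm ± 0.225 (SD, n = 3) in 129S1/Svlmj. Of 8 tested neighbours of Bhlhe23, 3 were lowest in CAST/EiJ, namely Mrgbp, Col9a3 and Ogfr, and the F-test called the former pair. Mrgbp averaged 9.48 cpm ± 0.425 (SD, n = 3) in CAST/EiJ and 12.9 cpm ± 0.789 (SD, n = 3) in NOD/ShiLtJ, the same extremes as Bhlhe23.

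All 3 tested neighbours of Lhx4 and 3 of 5 of Vsx1 were called by the F-test, beside 70.6% of all genes tested. Beside Lhx4, Cep350 was highest in PWK/PhJ, as Lhx4 was, at 139 cpm ± 3.21 (SD, n = 3), and lowest in NZO/HlLtJ at 124 cpm ± 1.24 (SD, n = 3). Acbd6 was lowest in CAST/EiJ, again as Lhx4 was, at 5.97 cpm ± 0.280 (SD, n = 3), but Qsox1 was highest there at 11.7 cpm ± 0.866 (SD, n = 3) and lowest in PWK/PhJ at 7.46 cpm ± 0.347 (SD, n = 3), the reverse of Lhx4. Beside Vsx1, Abhd12, Pygb and Gm14121 were all highest in PWK/PhJ, where Vsx1 was lowest, with Abhd12 at 30.2 cpm ± 0.348 (SD, n = 3) there and 21.5 cpm ± 0.910 (SD, n = 3) in NZO/HlLtJ. Near Irx6, Gm3272 averaged 123 cpm ± 2.33 (SD, n = 3) in PWK/PhJ and 0.0751 cpm ± 0.0610 (SD, n = 3) in 129S1/Svlmj. Near Isl1 and Irx5 no gene passed the filter.

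Promoters, from 250 bases before to 50 after the start of transcription, were available from RefSeq on build GRCm38.p6 for 5 of the 8 factors. They were searched on both strands for GGATTA, the core bound by Otx2 and Crx, TAATTA, a LIM homeodomain core, and the E-boxes CATATG and CAGATG of basic helix-loop-helix factors. GGATTA reads TAATCC and CAGATG reads CATCTG on the other strand, and TAATTA and CATATG read the same on both. Among all 32851 promoters of that length, 7.06% held the first, 5.29% the second, 3.91% the third and 17.2% the fourth. Isl1 held GGATTA on the reverse strand, 177 bases before the start, Prdm8 held CAGATG, and the promoters of Vsx1, Lhx4 and Bhlhe23 held none of the 4 motifs. The promoters of Isl1 and Vsx1 are shown because these genes had the highest correlation over strains, with the motif in capitals. That of Isl1 is chr13:116309639-116309938 on the minus strand, with 69% G and C, and that of Vsx1 is chr2:150689088-150689387 on the minus strand, with 55.7% G and C.
Isl1: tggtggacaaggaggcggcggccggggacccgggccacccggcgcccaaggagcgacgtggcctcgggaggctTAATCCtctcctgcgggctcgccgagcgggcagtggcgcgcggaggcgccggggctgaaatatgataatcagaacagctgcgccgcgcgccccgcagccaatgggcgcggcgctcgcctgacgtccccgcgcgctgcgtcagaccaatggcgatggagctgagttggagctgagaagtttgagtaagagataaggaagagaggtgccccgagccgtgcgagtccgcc
Vsx1: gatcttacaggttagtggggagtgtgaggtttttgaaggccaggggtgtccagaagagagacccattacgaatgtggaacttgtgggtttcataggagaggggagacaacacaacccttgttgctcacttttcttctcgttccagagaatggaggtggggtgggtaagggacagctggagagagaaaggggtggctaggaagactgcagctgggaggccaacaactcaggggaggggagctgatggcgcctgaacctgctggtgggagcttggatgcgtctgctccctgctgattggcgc
A match is a description, not a site or a cause, and binding was not measured.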

How the data were processed

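The authors sequenced 24 stranded libraries of retinal RNA depleted of ribosomal species. Reads were aligned with STAR to build GRCm38 (mm10) and assigned to genes in Partek, as named in the submitters' processing notes without versions. The study's methods name a RefSeq annotation, while exon lengths, overlaps and levels per kb here are from GENCODE. The deposited gene intervals of all 8 factors match those of GENCODE, except for an end 1 base higher. Intervals of other genes were not compared. The deposited values are cpm, scaled by the authors to total reads, with 0.0001 added. In each library between 86.9% and 89.1% of values below 30 reads were whole multiples of 1 read within 0.02, too few for a count test, and the remainder were fractions. Build GRCm38 is from C57BL/6J, and the effect of sequence differences of the other strains on alignment was not tested.

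Of the table, genes averaging 0.5 cpm or more over the 24 libraries entered limma 3.58.1 in R 4.3.3 on log2(cpm + 1), with a trend in the variance and Benjamini-Hochberg adjustment. The procedure was tested on simulated data, but the outcome is not given here and no conclusion rests on it. Correlations used exact permutation in Python 3.11.15. Lists for cell types were set by hand, and from each at most the 3 called genes with the largest difference between strains are named. Also named are tested genes of the other bipolar transcription factors, markers of retina and pigment epithelium, neighbours within 200 kb and the 2 genes closest to each factor. Genes that lead a summed list or share sequence with a factor are named as well. The members and lists were chosen with earlier results of these data known. Measurements of refraction and contrast sensitivity were not used here.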

Additional observations from a re-analysis of the deposited data

How the results depend on the processing

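The 64 called combinations of factor and pair of strains became 59 (26.3% beside 23.8% of all genes) to 94 (42% beside 35.5%) under 11 other settings of pseudocount, filter, scaling, test and threshold, and 59 (26.3% beside 23.5%) to 77 (34.4% beside 25%) when single libraries were left out. The 24 combinations with a 1.5-fold difference became 22 to 26 without single libraries, 12 with scaling by the bipolar reference genes (5.36% beside 10.6% of all genes), and 23 to 28 under the remaining settings, the 28 with a pseudocount of 0.1 (12.5% beside 11.2% of all genes). The cause was not tested. The F-test called 6 to 8 factors under the other settings, the 8 with Storey's q, which called 97.2% of all genes. Without single libraries it called 5 to 7, beside 66.8% to 71.4% of all genes. Irx6 lost its call with no filter on low values (52.9% of all genes called), with quantile normalization (71.8%) and with ordinary analysis of variance (65.9%). Of the differences between highest and lowest strain, those of Isl1, Bhlhe23, Prdm8, Vsx1 and Lhx4 were called in every fit, those of Bhlhe22 and Irx6 in all fits that held them except the scaling by bipolar reference genes, and that of Irx5 in 2 fits that left out a library and at an adjusted p under 0.05. Pairs of factors correlated by Pearson's r numbered 0 under the authors' scaling, median-ratio scaling and scaling by the bipolar reference genes. Under the last the rank correlation of Vsx1 and Isl1 had an adjusted exact permutation p of 0.0111, adjusted within that scaling only. The same exact permutation test gave an adjusted p of 0.358 with the authors' scaling and 0.323 with median-ratio scaling. A fit with Xist as a covariate was made because the labels give no sex. It called 7 factors by the F-test, beside 68.9% of all genes. No paired analysis was possible because the labels give no replicate number shared by strains. The study's methods describe pooling in randomized blocks, but the block of each library is not given and its effect was not tested. The fit without WSB/EiJ replicate 2 and C57BL/6J replicate 1 was added after seeing the data. A filter at 5 cpm left 6 factors, without Irx5 and Irx6.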
